A study of Mus musculus with 25 samples.

Results

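The data describe 10 selenoprotein genes, *Gpx1*, *Gpx4*, *Selenow*, *Selenoh*, *Selenop*, *Selenok*, *Selenof*, *Txnrd1*, *Txnrd2* and *Msrb1*, in RNA-seq of mouse hematopoietic stem cells sorted from bone marrow as LSK+ CD150+ CD48- (HSLAM cells). The genes were chosen by name because their proteins carry selenocysteine, and all 10 were found under these symbols among the 23116 genes of the deposited table. RefSeq annotates a selenocysteine codon in 24 mouse genes, so that 14 further selenoprotein genes were described beside them. The cells came from adult C57BL/6 mice with floxed *Znf143* alleles, 3 without the transgene *Rosa26ERT2-Cre* (here *Znf143 f/f*) and 3 with it (here *Znf143 -/-*), and each mouse gave 1 library. The study describes the mice as 3 pairs of male littermates. The labels do not say which libraries form a pair, so the comparison was made unpaired. All 6 mice were given the same middle dosage of tamoxifen, so the control mice carried the floxed alleles and the drug but no Cre. The *Rosa26ERT2-Cre* driver acts in all cell types, so deletion was not limited to stem cells, and the loxP sites flank exon 1 of *Znf143*. The comparison asked whether mRNAs of selenoproteins, or of the genes that make selenocysteine, differed after loss of ZNF143.

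Selenocysteine is an amino acid with selenium in place of the sulfur of cysteine, and it usually sits in the active site of enzymes that reduce peroxides, disulfides or oxidized methionine. It is inserted at an in-frame UGA codon, which would otherwise end translation, by a dedicated tRNA, the elongation factor EEFSEC and the protein SECISBP2, which binds a hairpin in the 3' part of the mRNA. ZNF143 is known as an activator of the gene for that tRNA, and when selenocysteine is scarce the UGA codon can be read as premature and the mRNA degraded. The tRNA gene is transcribed by RNA polymerase III, was not found in the table under a symbol for it, and is not analysed here.

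The UGA codon is what the 10 mRNAs share, and the coding sequence around it is shown here to make the readthrough site visible. Each line gives up to 21 bases on both sides of the first selenocysteine codon, 5' to 3', read from the RefSeq transcript on GRCm38.p6, with the codon (TGA in DNA) in capitals. The windows of *Selenow*, *Selenoh* and *Selenok* join bases of neighbouring exons. Those of *Selenok*, *Txnrd1* and *Txnrd2* end early, because the ordinary stop codon, taa in these genes, follows within a few codons.
*Gpx1*: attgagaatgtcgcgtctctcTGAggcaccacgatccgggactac
*Gpx4*: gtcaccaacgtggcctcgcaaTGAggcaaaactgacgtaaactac
*Selenow*: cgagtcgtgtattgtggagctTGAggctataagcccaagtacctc
*Selenoh*: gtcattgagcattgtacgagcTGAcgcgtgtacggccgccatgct
*Selenop*: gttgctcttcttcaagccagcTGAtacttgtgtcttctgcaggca
*Selenok*: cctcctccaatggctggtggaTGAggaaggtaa
*Selenof*: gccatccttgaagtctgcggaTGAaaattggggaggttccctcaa
*Txnrd1*: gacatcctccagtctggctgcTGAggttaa
*Txnrd2*: gagcctactgtgactggttgcTGAggctaa
*Msrb1*: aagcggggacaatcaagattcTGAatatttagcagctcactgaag

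The position of the codon differed between the proteins. Selenocysteine was residue 13 of 88 in SELENOW, 38 of 116 in SELENOH, 47 of 201 in GPX1 and 73 of 197 in GPX4, all in the N-terminal part. It was residue 93 of 162 in SELENOF and 95 of 116 in MSRB1. In SELENOK (residue 92 of 94), TXNRD1 (498 of 499) and TXNRD2 (526 of 527) it stood at the C-terminal end. SELENOP held 10 selenocysteines in 380 residues, the first at residue 59 and the other 9 between residues 259 and 377.

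**Figure D1:**
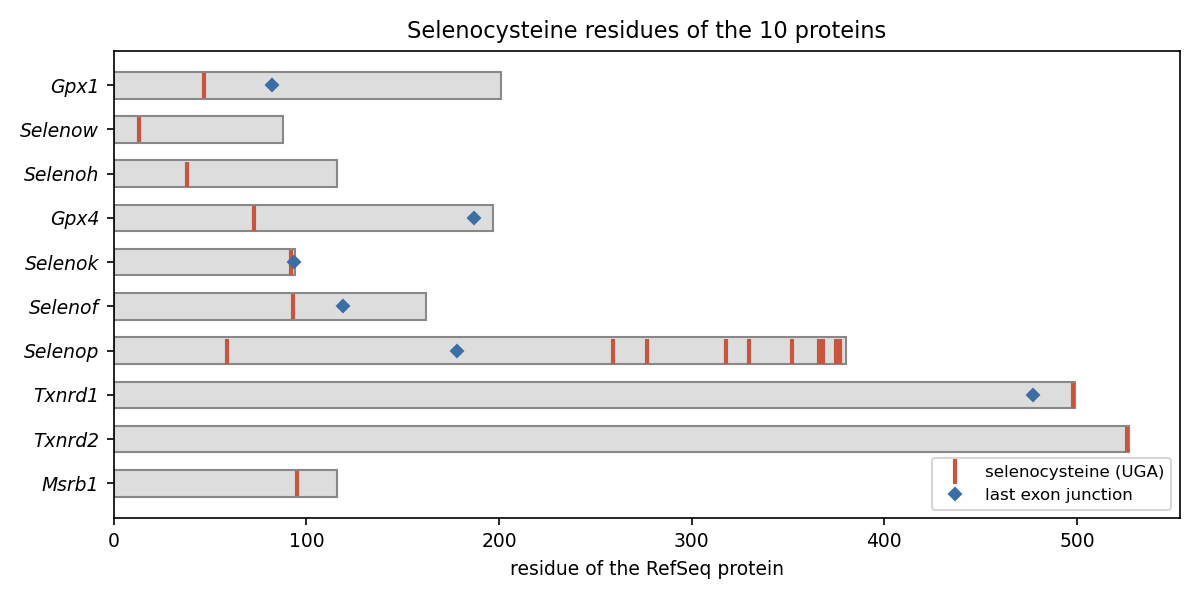
Bars show the length of each of the 10 RefSeq proteins in residues, red ticks its selenocysteines and blue diamonds the last exon junction where it falls within the coding sequence. SELENOP holds 10 selenocysteines, the other 9 proteins hold 1 each.

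The genotypes were checked on the deleted gene, because the labels call the deleted genotype a CTCF knockout. *Zfp143*, the mouse symbol of *Znf143*, had a rescaled FPKM of 3.07, 4.43 and 3.66 in *Znf143 f/f* and of 0.155, 0.298 and 0.27 in *Znf143 -/-* libraries, whereas *Ctcf* had 30.3, 32.5 and 30.2 against 31.7, 27 and 26.5. Rescaled FPKM are fragments scaled to gene length and library depth, divided further by a size factor per library. The rescaling was needed because the third *Znf143 -/-* library carries the FPKM divisor of the second (48378188) although 57895793 of its fragments lay on genes. Across libraries, 38643255 to 57895793 fragments lay on genes. All 10 HSLAM markers examined were detected. *Ly6a* was called higher and *Mecom* lower in *Znf143 -/-* libraries (adjusted p under 0.05 from limma), beside 5.99% of all genes called. The log2 fold changes of the 10 markers (*Znf143 -/-* against *Znf143 f/f*) were negative in 7 and positive in 3. Their median was -0.34, beside 0.0065 over all genes tested. The lymphoid genes *Cd3e* and *Cd79a* were below a mean of 0.1 FPKM in both genotypes. Of 27 markers of other blood, marrow and vessel cells, 22 were in the table, and their summed level was 676 to 835 FPKM in *Znf143 f/f* and 821 to 1177 FPKM in *Znf143 -/-* libraries. Of these, 18 were tested, and their log2 fold changes were positive in 15 and negative in 3, with a median of 0.52. Of the 18, 4 were called higher and 0 lower, beside 5.99% of all genes called. *Cd48*, whose protein the gate excludes, was called higher, at 9.68, 11.1 and 9.56 FPKM against 19.6, 20.4 and 19.7 FPKM. The other called markers were *S100a8*, *Elane* and *Csf1r*. The granulocyte gene *Ly6g* was at 0, 0 and 0.024 FPKM against 0.0479, 0.216 and 0.182 FPKM, so that fewer or more cells of a type and less or more RNA per cell cannot be told apart for any gene below.

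Selenoprotein mRNAs ranged from the most abundant of the transcriptome to moderate ones. *Gpx1*, which encodes the cytosolic glutathione peroxidase, was the gene with the fifth highest level of all 23116 (rank 5 in *Znf143 f/f*), at 3602 ± 736 FPKM (SD, n = 3), and took between 0.362% and 0.584% of all fragments on genes of a library. It was followed by *Selenow* (586 ± 144 FPKM, rank 114), *Selenoh* (244 ± 26.5 FPKM, rank 309) and *Gpx4* (237 ± 36.5 FPKM, rank 319). *Selenok* (199 ± 26.4 FPKM), *Selenof* (116 ± 4.33 FPKM) and *Selenop* (43.7 ± 4.14 FPKM) came next, and *Txnrd1* (17.1 ± 2.27 FPKM), *Txnrd2* (11.3 ± 0.675 FPKM) and *Msrb1* (10.4 ± 3.01 FPKM, rank 4766) were the lowest of the 10. FPKM are per listed gene length, which merges all exons of a gene and is longer than the RefSeq transcript for some genes, such as *Selenof* (5819 against 1510 bases) and *Txnrd2* (4401 against 1905 bases), so the order depends on the length used. In the order by FPKM *Selenoh* and *Gpx4* could not be ranked, since *Selenoh* was the higher in 3 of 6 libraries, nor could *Txnrd2* and *Msrb1* (4 of 6 libraries), whereas the *Znf143 f/f* ranges of *Gpx4* and *Selenok* overlapped but *Gpx4* was higher in 6 of 6 libraries. The other 6 neighbouring pairs had separate *Znf143 f/f* ranges on this scale.

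**Figure D2:**
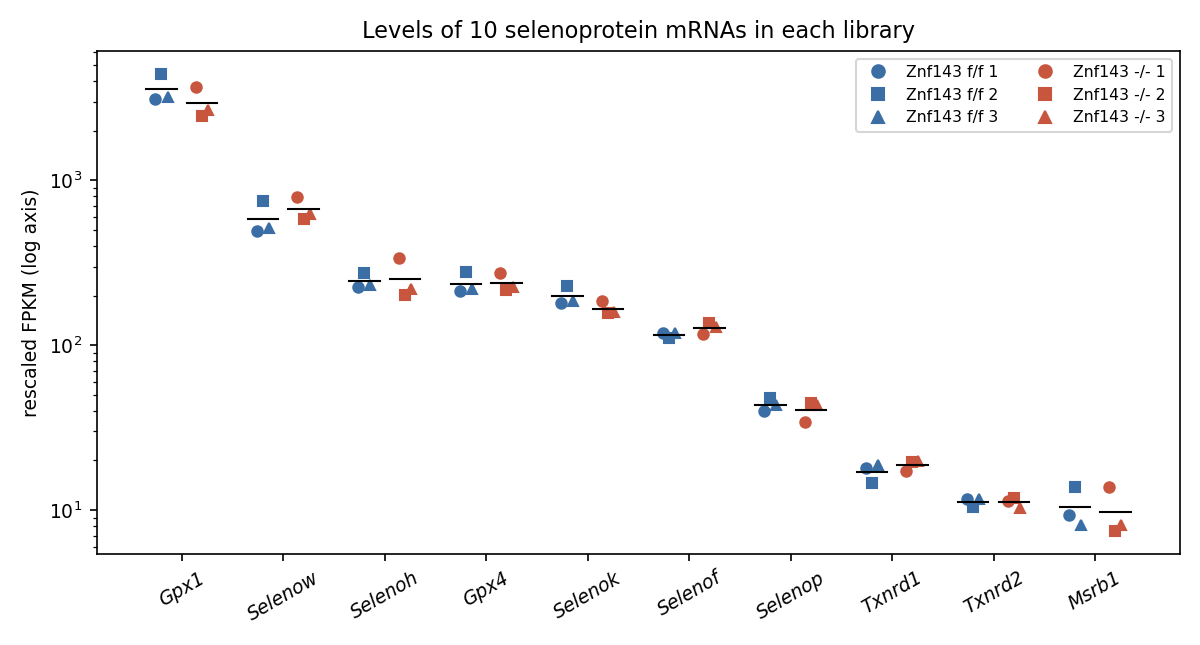
The vertical axis gives the rescaled FPKM of each library on a log axis for the 10 genes in order of their *Znf143 f/f* mean, with black lines at the mean of 3 libraries. Blue marks are *Znf143 f/f* and red marks *Znf143 -/-* libraries, and they overlap in each gene, from *Gpx1* above 2400 FPKM to *Msrb1* below 14 FPKM.

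None of the 10 selenoprotein genes was called at an adjusted p under 0.05 (limma with Benjamini-Hochberg adjustment over 19279 genes), 0 lower and 0 higher. Of all genes tested, 5.99% were called, 2.99% lower and 3% higher, so at that share fewer than 1 of 10 genes would be called and a count of 0 does not set these genes apart. At an unadjusted p under 0.05 the count was also 0 of 10, against 24.2% of all genes, and with limma's voom on recovered fragments it was 0 called. The levels of both genotypes overlapped in 10 of 10 genes, whereas they did not overlap in 30.7% of all genes tested. The log2 fold changes (*Znf143 -/-* against *Znf143 f/f*, on log2 of rescaled FPKM + 0.1) lay between -0.29 (*Gpx1*) and 0.20 (*Selenow*), 5 above and 5 below 0. Their median was -0.0032, beside 0.0065 over all genes tested.

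**Figure D3:**
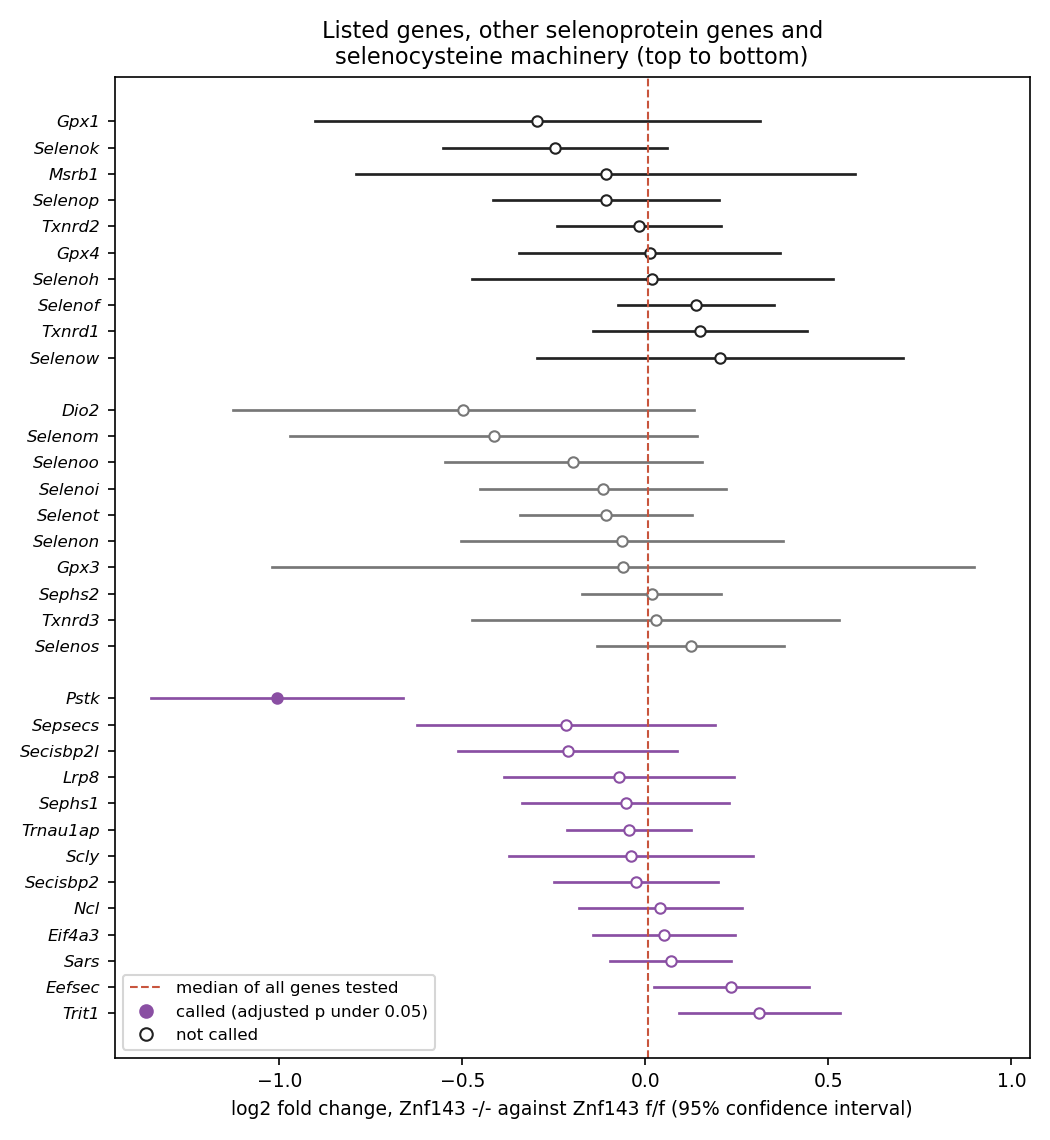
Points give the log2 fold change of each gene and lines its 95% confidence interval from limma, for the 10 listed selenoprotein genes (black), 10 other selenoprotein genes (grey) and 13 genes of the selenocysteine machinery (purple). *Pstk*, the filled point at -1.01, is the 1 called gene, and the intervals of the 20 selenoprotein genes all include 0.

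The glutathione peroxidases reduce hydrogen peroxide and organic hydroperoxides, and GPX4 acts on lipid peroxides within membranes and so protects from ferroptosis. *Gpx1* (ENSMUSG00000063856.7, chromosome 9 of GRCm38, 108338903 to 108340343, plus strand; first UGA codon at chr9:108339451-108339453 in exon sequence) had 3126, 4450 and 3231 FPKM in *Znf143 f/f* and 3671, 2470 and 2686 FPKM in *Znf143 -/-* libraries. The second *Znf143 f/f* and the first *Znf143 -/-* library were the highest of their groups, and the other 2 of each group lay apart by genotype, with *Znf143 -/-* lower. The log2 fold change was -0.29 (SE 0.25, 95% confidence interval -0.90 to 0.31, adjusted p = 0.534 from limma), and 173347 to 315896 fragments stood behind each value. *Gpx1* held 70.5%, 72.0% and 70.5% of the summed FPKM of the 10 genes in *Znf143 f/f* and 67.3%, 64.2% and 65.1% in *Znf143 -/-* libraries, a share whose ranges did not overlap; this ratio was chosen after the values were seen and was not tested.

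*Gpx4* (ENSMUSG00000075706.10, chromosome 10, 80047166 to 80056439, plus strand; UGA codon at chr10:80054737-80054739) had 213, 279 and 219 FPKM against 273, 216 and 225 FPKM. The values of the genotypes mirrored each other, with 1 high library in each. The log2 fold change was 0.01 (SE 0.15, 95% confidence interval -0.34 to 0.37, adjusted p = 0.973 from limma). A processed pseudogene, *Gpx4-ps2*, was listed at 43.5 to 56.1 FPKM, between 19.4% and 20.4% of the *Gpx4* level in each library, and how fragments were divided between such near-identical copies cannot be seen in the table.

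The thioredoxin reductases pass electrons from NADPH to thioredoxin, TXNRD1 in the cytosol and TXNRD2 in mitochondria, with selenocysteine next to the last residue. *Txnrd1* (ENSMUSG00000020250.10, chromosome 10, 82833951 to 82897712, plus strand; UGA codon at chr10:82896037-82896039) had 18.0, 14.5 and 18.8 FPKM in *Znf143 f/f* and 17.3, 19.5 and 19.9 FPKM in *Znf143 -/-* libraries, which gave 0.15 as log2 fold change (SE 0.12, 95% confidence interval -0.14 to 0.44). Here the second *Znf143 f/f* and the first *Znf143 -/-* library were the lowest of their groups. *Txnrd2* (ENSMUSG00000075704.16, chromosome 16, 18426384 to 18479073, plus strand; UGA codon at chr16:18477772-18477774) had 11.6, 10.5 and 11.7 FPKM against 11.3, 11.8 and 10.3 FPKM, a log2 fold change of -0.02 (SE 0.094, 95% confidence interval -0.24 to 0.21). The adjusted p from limma was 0.51 for *Txnrd1* and 0.933 for *Txnrd2*.

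MSRB1 reduces the R form of oxidized methionine in proteins. *Msrb1* (ENSMUSG00000075705.12, chromosome 17, 24736642 to 24742778, plus strand; UGA codon at chr17:24740158-24740160) had 9.30, 13.8 and 8.10 FPKM in *Znf143 f/f* and 13.7, 7.47 and 8.09 FPKM in *Znf143 -/-* libraries. It varied most of the 10 genes within a genotype, with a coefficient of variation of 29.0% and 35.3%, and rested on the fewest fragments (450 to 856). Its log2 fold change of -0.11 had the widest interval (SE 0.29, 95% confidence interval -0.79 to 0.57, adjusted p = 0.857 from limma), so that a fold between 0.579 and 1.49 lay within it.

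SELENOF and SELENOK belong to the endoplasmic reticulum, where SELENOF binds the glycoprotein folding sensor UGGT and SELENOK, a membrane protein, takes part in protein palmitoylation and calcium flux of immune cells. *Selenof* (ENSMUSG00000037072.15, chromosome 3, 144570304 to 144597680, plus strand; UGA codon at chr3:144590645-144590647) had 118, 111 and 118 FPKM against 118, 136 and 129 FPKM. The first *Znf143 -/-* library fell within the *Znf143 f/f* range and the other 2 lay above it, and the log2 fold change was 0.14 (SE 0.089, adjusted p = 0.398 from limma). Its 95% confidence interval, -0.07 to 0.35, was the narrowest of the 10. *Selenok* (ENSMUSG00000042682.9, chromosome 14, 29968308 to 29975662, plus strand; UGA codon at chr14:29973440-29973442) had 181, 229 and 186 FPKM in *Znf143 f/f* and 185, 157 and 158 FPKM in *Znf143 -/-* libraries. The first *Znf143 -/-* library again lay within the *Znf143 f/f* range and the other 2 below it. The log2 fold change was -0.25 (SE 0.13, 95% confidence interval -0.55 to 0.06), and its adjusted p of 0.296 from limma and its exact permutation p of 0.2 (2-sided, smallest possible 0.1) were the lowest of the 10 genes. The pseudogenes *Selenok-ps1*, *Selenok-ps5* and *Selenok-ps8* were each listed below 1 FPKM.

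SELENOP is the secreted carrier of selenium in plasma, made mainly by liver. *Selenop* (ENSMUSG00000064373.12, chromosome 15, 3268547 to 3280508, plus strand; first UGA codon at chr15:3274848-3274850) had 39.8, 48.0 and 43.2 FPKM in *Znf143 f/f* and 34.2, 44.3 and 43.5 FPKM in *Znf143 -/-* libraries. Apart from the low first *Znf143 -/-* library, the values of both genotypes lay in 1 range, with a log2 fold change of -0.11 (SE 0.13, 95% confidence interval -0.42 to 0.20, adjusted p = 0.664 from limma). *Ccdc152* on the opposite strand shares 439 of 2842 exon bases and was listed at no more than 0.0757 FPKM.

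SELENOW and SELENOH are small thioredoxin-like redox proteins, SELENOH in the nucleus. *Selenow* (ENSMUSG00000041571.9, chromosome 7, 15917208 to 15922402, minus strand; UGA codon at chr7:15920464-15920466) had 491, 752 and 516 FPKM in *Znf143 f/f* and 797, 585 and 624 FPKM in *Znf143 -/-* libraries. Without the high second *Znf143 f/f* library, the *Znf143 -/-* values all lay above those of *Znf143 f/f*, but over 6 libraries the log2 fold change of 0.20 was within the spread (SE 0.21, 95% confidence interval -0.30 to 0.70, adjusted p = 0.606 from limma). *Selenoh* (ENSMUSG00000076437.10, chromosome 2, 84669215 to 84670770, minus strand; UGA codon at chr2:84670381-84670383) had 225, 274 and 232 FPKM against 337, 202 and 220 FPKM. The first *Znf143 -/-* library was above and the other 2 were below all *Znf143 f/f* libraries, and the log2 fold change was 0.02 (SE 0.21, 95% confidence interval -0.47 to 0.51, adjusted p = 0.969 from limma).

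The spread within genotypes followed a pattern that 2 libraries shared. The second *Znf143 f/f* and the first *Znf143 -/-* library were the highest of their groups in 6 of 10 selenoprotein genes (*Gpx1*, *Gpx4*, *Selenow*, *Selenoh*, *Selenok* and *Msrb1*) and the lowest in 2 of 10 (*Selenof* and *Txnrd1*), beside 26.2% and 30.3% of the 12529 genes with a mean of at least 1 FPKM. The 6 genes are listed with lengths of 736 to 1891 bases and *Selenof* and *Txnrd1* with 5819 and 7086 bases. Among the 12529 genes, those listed under 1000 bases were higher in the second *Znf143 f/f* library by a median of 0.32 on the log2 scale. In the first *Znf143 -/-* library they were higher by 0.47. Genes of 4000 to 7999 bases were lower in these libraries, with medians of -0.11 and -0.13. The erythroid gene *Car1* also stood apart in the second *Znf143 f/f* library (141 FPKM against 15.1 and 21.8 FPKM) but not in the first *Znf143 -/-* library (6.88 FPKM against 9.4 and 8.78 FPKM). The part of transcript length or of erythroid RNA in the spread of the selenoprotein genes was not tested.

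**Figure D4:**
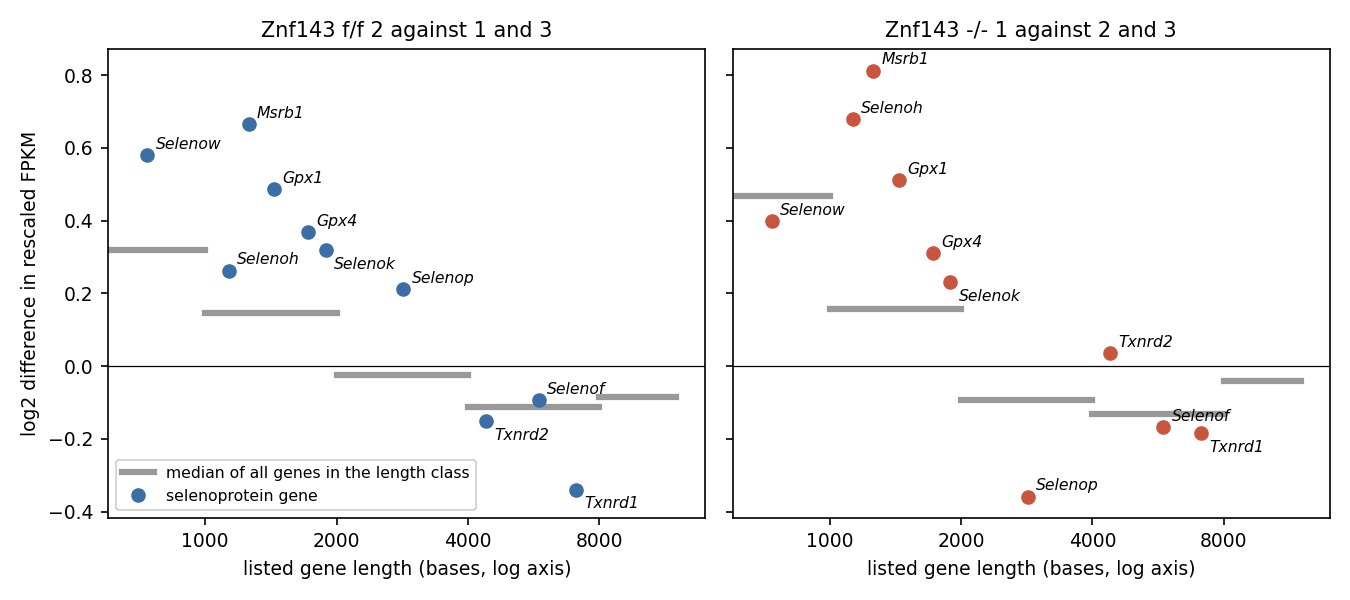
The vertical axes give the log2 difference in rescaled FPKM of the second *Znf143 f/f* library from the other 2 (left) and of the first *Znf143 -/-* library from the other 2 (right), against the listed gene length in bases on a log axis. Grey bars are medians of all genes with at least 1 FPKM in 5 length classes, and the short selenoprotein mRNAs *Msrb1*, *Selenow*, *Selenoh* and *Gpx1* lie above 0 in both panels.

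With both of these libraries left out, a comparison of 2 against 2 mice chosen after the data were seen, 4 of 10 genes were called, while 42.4% of all 19101 genes tested were. *Gpx1* (log2 fold change -0.30, adjusted p = 0.0482 from limma) and *Selenok* (-0.22, adjusted p = 0.0117) were lower, and *Selenow* (0.26, adjusted p = 0.0233) and *Selenof* (0.16, adjusted p = 0.0328) were higher in *Znf143 -/-* libraries. The libraries left out were picked because they stood apart from their groups in many genes, so that the spread of the remaining 4 understates that between mice. The share of the selenoprotein genes was near that of all genes. The direction of *Gpx1*, *Selenok*, *Selenow* and *Selenof*, and of *Txnrd1*, which was not called, was the same in all 16 alternatives. These reuse the same libraries and include the setting above, so equal signs are not independent evidence.

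Of the other 14 selenoprotein genes, 10 were in the table, and Gpx2, Dio1, Dio3 and Selenov were not found there. Of the 10, 0 were called by limma or by voom, beside 5.99% of all genes called by limma. At an unadjusted p under 0.05 from limma the count was also 0, beside 24.2% of all genes. *Selenos*, a membrane protein of endoplasmic reticulum quality control, was the highest at 65.7, 83.9 and 71 FPKM in *Znf143 f/f* and 78.9, 79 and 81.2 FPKM in *Znf143 -/-* libraries (log2 fold change 0.12). *Sephs2*, the selenophosphate synthetase that makes the selenium donor and is itself a selenoprotein, had 38.2, 39.9 and 42.3 FPKM against 39.2, 40.1 and 42.5 FPKM (log2 fold change 0.02, 95% confidence interval -0.17 to 0.21). *Selenom* (27.8, 38.8 and 27.7 against 32.4, 19.2 and 20.3 FPKM) and *Dio2*, the deiodinase that activates thyroid hormone (1.44, 0.779 and 1.38 against 0.934, 0.773 and 0.692 FPKM), had the lowest log2 fold changes, -0.41 (SE 0.23) and -0.50 (SE 0.26), with adjusted p of 0.331 and 0.307 from limma. *Dio2* passed the threshold when the second *Znf143 f/f* library was left out (log2 fold change -0.76, adjusted p = 0.0487 from limma). In that setting 11.85% of all genes were called.

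The remaining 6 of these genes were not called either. *Selenot* and *Selenon*, both of the endoplasmic reticulum, had log2 fold changes of -0.11 and -0.06, and *Selenoo*, a mitochondrial AMPylating enzyme, -0.20. *Selenoi*, an ethanolamine phosphotransferase, stood at -0.12, *Txnrd3*, the thioredoxin-glutathione reductase of testis, at 0.03 and *Gpx3*, the secreted glutathione peroxidase, at -0.06. *Gpx3* was 4.22 FPKM in the second *Znf143 f/f* library and 1.42 to 2.01 FPKM in the other 5. The median log2 fold change of the 10 genes was -0.0855.

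Genes that make or insert selenocysteine or handle the supply of selenium were compared next. Of 14 listed genes, 13 were tested, and 1, *Pstk*, was called, lower in *Znf143 -/-* (0 higher), beside 5.99% of all genes. The median log2 fold change of the 13 was -0.0402. PSTK is the kinase that phosphorylates the serine on the selenocysteine tRNA, the step that prepares its conversion to selenocysteine. *Pstk* (ENSMUSG00000063179.13, chromosome 7, 131371141 to 131394482, plus strand) had 6.72, 8.28 and 7.04 FPKM in *Znf143 f/f* and 4.26, 3.24 and 3.36 FPKM in *Znf143 -/-* libraries. The genotypes did not overlap, and the *Znf143 -/-* mean was 49.3% of the *Znf143 f/f* mean (3.62 ± 0.557 against 7.35 ± 0.82 FPKM, SD, n = 3 each). The log2 fold change was -1.01 (SE 0.14, 95% confidence interval -1.35 to -0.66, adjusted p = 0.0138 from limma; exact permutation p = 0.1, the smallest that 3 against 3 allow). It passed in 12 of 16 alternatives, not with the library number as a block, and the adjusted p from limma was 0.0679, 0.0608 and 0.0809 without the third *Znf143 f/f*, the second *Znf143 -/-* and the third *Znf143 -/-* library. Exons of *Pstk* share 4652 of 7914 bases with *Ikzf5* on the opposite strand (0.757 to 1.82 FPKM), from which fragments cannot be told apart, since the library kit does not mark strand.

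The other steps of the pathway were not called. *Sepsecs*, which encodes the enzyme that completes the conversion to selenocysteine on the tRNA, had 2.72, 2.12 and 2.80 FPKM against 1.85, 2.20 and 2.49 FPKM (log2 fold change -0.22, SE 0.17, adjusted p = 0.491 from limma). *Sars*, the seryl-tRNA synthetase that charges the tRNA first, stood at 0.07, and *Trnau1ap*, a protein bound to the tRNA, at -0.04. *Trit1*, which modifies a base of the anticodon loop, had the highest log2 fold change (0.31, SE 0.092, adjusted p = 0.101 from limma). The elongation factor gene *Eefsec* followed (0.23, SE 0.088, adjusted p = 0.17 from limma). *Secisbp2* stood at -0.03 and its relative *Secisbp2l* at -0.21. The genotypes did not overlap in *Trit1*, *Eefsec* and *Sars*, 3 of 13 genes, higher in *Znf143 -/-*. Nor did they in *Pstk* and *Secisbp2l*, 2 of 13, lower, beside 30.7% of all genes tested. The most abundant genes of the list, *Eif4a3* (160 to 177 FPKM over 6 libraries) and *Ncl* (75.1 to 88.1 FPKM), which encode RNA-binding proteins reported to act on selenoprotein mRNAs, had log2 fold changes of 0.05 and 0.04. *Sephs1*, *Scly* and *Lrp8*, a receptor for SELENOP, lay between -0.07 and -0.04.

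Genes of related chemistry are given by list, beside 5.99% of all genes called. The lists overlap, since the Nrf2 list holds *Txnrd1*, a listed selenoprotein gene, and genes of the glutathione and thioredoxin lists. The list of cysteine homologs holds glutathione peroxidase and methionine sulfoxide reductase genes without selenocysteine, and *Msra* is in it by reaction, not by sequence. Of 5 tested, 1 was called, higher, and the median log2 fold change was 0.31, with 3 above and 2 below 0. *Gpx8*, a peroxidase of the endoplasmic reticulum (ENSMUSG00000021760.5, chromosome 13, 113042753 to 113046410, minus strand), had 2.07, 1.97 and 2.38 FPKM against 3.08, 3.40 and 3.57 FPKM (log2 fold change 0.62, SE 0.13, adjusted p = 0.0418 from limma). This call was lost in 8 of 16 alternatives, among them the FPKM as deposited (adjusted p = 0.105) and voom (adjusted p = 0.0883). *Msra*, *Gpx7*, *Msrb2* and *Msrb3* had log2 fold changes of 0.31, 0.31, -0.16 and -0.12 and were not called.

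Of 16 thioredoxin, peroxiredoxin and ribonucleotide reductase genes and their partners, 0 were called by limma or by voom in either direction and 5 had an unadjusted p under 0.05, beside 24.2% of all genes. Their median log2 fold change was 0.068. *Txn1*, the thioredoxin that TXNRD1 reduces, had 802, 1218 and 848 FPKM against 1406, 890 and 946 FPKM, with the same high libraries as *Gpx1* and a log2 fold change of 0.17 (adjusted p = 0.718 from limma). *Prdx1* (0.25), *Prdx2* (-0.26) and *Prdx6* (0.06), the most abundant peroxiredoxins, were not called either.

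Of 20 glutathione genes 1 was called, lower, and the median was 0.11. *Chac2*, which degrades glutathione (ENSMUSG00000020309.6, chromosome 11, 30976707 to 30986350, minus strand), had 9.13, 11.6 and 9.67 FPKM in *Znf143 f/f* and 5.24, 4.53 and 4.41 FPKM in *Znf143 -/-* libraries, 46.7% of the *Znf143 f/f* mean (log2 fold change -1.08, SE 0.13, adjusted p = 0.00771 from limma). It passed in 14 of 16 alternatives, not with the library number as a block, and its adjusted p from limma was 0.0519 without the third *Znf143 -/-* library. The most abundant genes of the list, *Gstp1* (-0.02), *Gstm1* (0.11), *Gsto1* (0.16) and *Gstm5* (0.28), were not called.

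Of 20 genes of the Nrf2 pathway, the transcription programme that answers oxidants and controls *Txnrd1*, 1 was called higher and 1 lower, with a median of -0.05. *Hmox1*, which encodes heme oxygenase, rose from 0.594, 0.881 and 0.685 to 2.27, 3.61 and 3.33 FPKM (ENSMUSG00000005413.8, chromosome 8, 75093621 to 75100589, plus strand; log2 fold change 1.94, SE 0.23, adjusted p = 0.00771 from limma), from 40 to 340 fragments per library. It passed in 15 of 16 alternatives, the exception being without the third *Znf143 -/-* library (adjusted p = 0.053). *Nqo1*, a quinone reductase (ENSMUSG00000003849.8, chromosome 8, 107388225 to 107403206, minus strand), fell from 15.2, 17.8 and 14.8 to 10.8, 11.4 and 11.3 FPKM (log2 fold change -0.50, SE 0.097, adjusted p = 0.0346 from limma), and passed in 9 of 16 alternatives. Both called genes thus moved in opposite directions, and *Fth1* (-0.04), *Ftl1* (-0.14), *Taldo1* (-0.04) and *Tkt* (-0.12), the most abundant of the list, were not called. *Hmox1* is also expressed by macrophages. The monocyte and macrophage gene *Csf1r*, at no more than 0.0139 FPKM in *Znf143 f/f* libraries, was at 0.185, 0.262 and 0.196 FPKM in *Znf143 -/-* libraries. Of the other macrophage genes examined, *C1qb* was not called, and *Adgre1* and *C1qa* were not found. The part of macrophage RNA in the *Hmox1* result was not tested.

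**Figure D5:**
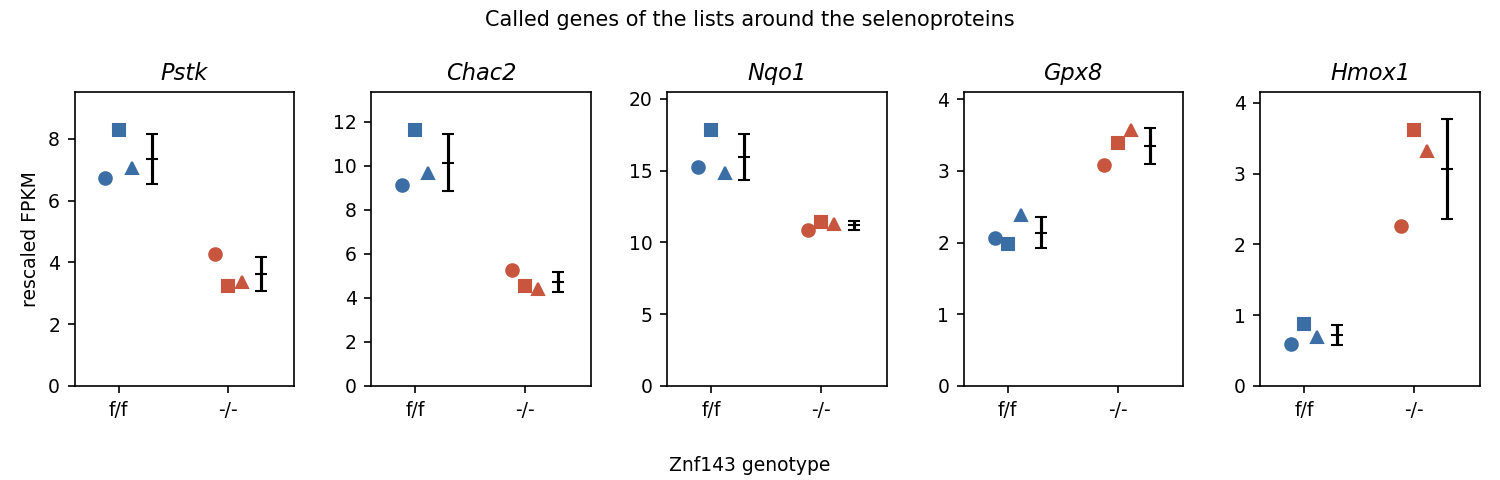
Each panel gives the rescaled FPKM of 1 gene in 3 *Znf143 f/f* (blue) and 3 *Znf143 -/-* (red) libraries from 0, with the mean and SD beside the points, and with circles, squares and triangles for libraries 1, 2 and 3. *Pstk*, *Chac2* and *Nqo1* lie lower and *Gpx8* and *Hmox1* higher in all *Znf143 -/-* libraries.

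Of 8 other antioxidant genes, 7 were tested and 0 were called by limma or by voom, with a median of 0.13. At an unadjusted p under 0.05 from limma the count was 0, beside 24.2% of all genes. *Sod1*, *Cat* and *Sod2*, which remove superoxide and hydrogen peroxide, had log2 fold changes of -0.18, -0.16 and 0.13, and *Gch1* had 0.17.

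The features of the mRNAs that are known to matter for decay at the UGA codon were set beside the fold changes. In 8 of the 10 listed genes the first UGA codon ends more than 50 bases before the last exon junction of the transcript, from 66 bases in *Msrb1* to 357 in *Selenop*. In *Selenok* it ends 5 bases before the junction and in *Txnrd1* it lies in the last exon. Over the 20 selenoprotein genes tested, log2 fold changes had a median of -0.0624 in the 12 genes with a UGA codon more than 50 bases before the last junction (range -0.41 to 0.20) and -0.0489 in the other 8 (range -0.50 to 0.15), as a description without a test.

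Promoters were searched for letters of the ZNF143 binding motif, CCCANNATG, and for ACTACAA, which is often found beside it, on both strands of the 300-base windows of RefSeq promoters (250 bases before to 50 after a start). CCCANNATG was in 0 of the 17 promoter windows of the 10 genes, beside 5.01% of 32851 promoters. ACTACAA was in 2 of the 3 windows of *Selenop*, which overlap and hold the same match, and in no window of the other 9 genes, beside 3.24% of all promoters. Neither was found in a window of the 13 machinery genes that could be matched, *Pstk* included, and *Sepsecs* was not matched. Among the genes of the other lists, *Nqo1*, called lower, and *Taldo1*, *Sod2* and *Rrm1* each had a window with CCCANNATG.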

How the data were processed

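RNA-seq of 6 HSLAM libraries was analysed, and the ChIP-seq and HiC samples were not analysed here. Per the study's methods, TrimGalore was used for trimming, STAR for alignment (GRCm38), FeatureCounts for counting and DESeq2 for the authors' comparison. The authors deposited 1 table with gene length, the FPKM of each library and columns of their own comparison (mean normalized counts, log2 fold changes with standard errors, Wald statistics and p-values), which were not used here. FPKM multiplied by gene length and divided by a unit fitted for each library gave whole fragments for 99.986% of 138696 values (within 0.05). FPKM were divided by median-of-ratios size factors over 19046 genes. Genes with a mean of at least 0.1 entered an unpaired, 2-sided limma fit (version 3.58.1, R 4.3.3; lmFit and eBayes, trend on) of log2(rescaled FPKM + 0.1), p-values were adjusted by Benjamini-Hochberg, and the pseudocount understates the change of genes at low levels. The fit was tested on simulated data with known folds. Library numbers come from the sample titles. For a length of 1 kb, 3 fragments amount to 0.0514 to 0.078 rescaled FPKM.

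Gene positions and exon overlaps came from GENCODE release 21 for mouse (GRCm38), selenocysteine codons and promoters from RefSeq (GRCm38.p6), where all 10 genes were matched by symbol. Named genes are the 10 listed genes, *Zfp143*, *Ctcf*, all other selenoprotein genes and, of the other lists, the called genes and up to 4 with the highest mean, and others only as overlapping genes or markers, of which some are not reported here. The members and lists were chosen with earlier results of these data known. The alternatives were FPKM as deposited, division by each library's own fragments, pseudocounts of 0.01 and 1, no filter or a mean of at least 1, voom on recovered fragments, no variance trend, a replicate block, each library left out and, added after the data were seen, 2 libraries left out together. Python 3.11.15 was used for the other steps.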

Additional observations from a re-analysis of the deposited data

How the results depend on the processing

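The count of called genes among the 10 selenoprotein genes was 0 in both directions under each of the 15 alternatives other than the last named in the methods, with 191 (replicate block) to 2280 calls among all genes. Their median log2 fold change stayed within -0.0606 to 0.071 with each library left out and was 0.11 on the FPKM as deposited, where the median of all genes moved to 0.114. The listed genes rest on 450 to 315896 fragments per library, and with 3 mice a p above the threshold does not show equal levels. With the second *Znf143 f/f* and the first *Znf143 -/-* library left out together, calls were 2 lower and 2 higher among the 10 genes, 5 other selenoprotein genes, 3 of the machinery, 2 cysteine homologs, 10 thioredoxin and peroxiredoxin genes, 9 glutathione genes, 7 Nrf2 pathway genes and 6 other antioxidant genes, in a setting that called 8108 of 19101 genes. Genes that several lists share are counted in each. The same setting separated the genotypes in 8 of the 10 genes. Separation over all genes was counted only for the rescaled FPKM of all 6 libraries (30.7%). With no matching share beside it, the count of 8 does not set these genes apart. Leaving out both libraries also turned the log2 fold change of *Selenoh* to -0.12, *Selenop* to 0.0833, *Gpx3* to 0.43, *Gstp1* to 0.017 and *Gch1* to -0.31.

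The replicate numbers were not taken as pairs, because the labels do not say which libraries are littermates and same-numbered libraries did not deviate together (correlation of the deviations of same-numbered libraries -0.0952, -0.0884 and 0.0353). This does not show that the mice were unrelated, and a block by litter could not be fitted. The replicate block left 0 calls in the machinery, 0 in the cysteine homologs, 0 in the glutathione genes and 1 (*Hmox1*) in the Nrf2 pathway, with an adjusted p from limma of 0.0849 for *Pstk* and 0.0629 for *Chac2*, and of the 6 libraries the third of each genotype, but not the other 4, correlated best with the library of its own number. On the FPKM as deposited, 0 cysteine homologs and 1 Nrf2 pathway gene were called, and small log2 fold changes turned positive for *Selenop* (0.007), *Txnrd2* (0.0952), *Msrb1* (0.0051), *Gpx3* (0.0486), *Selenon* (0.0497), *Selenot* (0.006), *Trnau1ap* (0.069), *Gstp1* (0.0921), *Fth1* (0.0721) and *Taldo1* (0.0741). Division by each library's own fragments gave 0 cysteine homologs, 1 listed gene with separate genotypes (*Selenok*), and log2 fold changes of 0.0114 for *Txnrd2* and 0.0076 for *Gstp1*. Voom called 0 cysteine homologs, and without the variance trend 1 Nrf2 pathway gene was called. The cause of these changes was not tested.

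Leaving out each library in turn gave 0 to 1 calls in the other selenoprotein genes, the machinery, the cysteine homologs, the thioredoxin and peroxiredoxin genes and the glutathione genes, 0 to 3 in the Nrf2 pathway, and 0 to 6 listed genes with separate genotypes, 6 without the first *Znf143 -/-* library. It also turned the sign of small log2 fold changes, which ranged from -0.0918 to 0.13 for *Gpx4*, -0.21 to 0.16 for *Selenoh*, -0.17 to 0.0128 for *Selenop*, -0.0682 to 0.0364 for *Txnrd2*, -0.38 to 0.11 for *Msrb1*, -0.32 to 0.44 for *Gpx3*, -0.13 to 0.22 for *Txnrd3*, -0.25 to 0.0543 for *Selenon*, -0.0177 to 0.0561 for *Sephs2*, -0.0185 to 0.0963 for *Ncl*, -0.26 to 0.0085 for *Msrb2*, -0.0334 to 0.36 for *Txn1*, -0.0753 to 0.0353 for *Gstp1*, -0.14 to 0.0659 for *Fth1*, -0.20 to 0.0839 for *Taldo1* and -0.11 to 0.34 for *Gch1*.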
